A study of Mus musculus with 7 samples.

Results

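The 10 genes described here, *Dntt*, *Rag1*, *Rag2*, *Il7r*, *Vpreb1*, *Igll1*, *Ebf1*, *Pax5*, *Cd79a* and *Cd79b*, are genes that lymphoid progenitors and early B lineage cells use to build an antigen receptor. They are 10 of the 25033 gene symbols counted, and all 10 were among the 11265 genes left after a filter on low counts. *Dntt* was chosen by its lower level in *HRP-2* knockout than in wild type cells in these same libraries, and the other 9 were listed beside it by their roles, with earlier results of these data known. The question was whether the lower *Dntt* is shared by other early lymphoid genes. Since the comparison of the genotypes was used in the choice, its values are given for these genes as a description, and counts of genes past a threshold stand only beside the share of all genes that passed it.

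RNA was taken from lin- bone marrow cells, the cells that remain when cells with markers of mature blood lineages are removed from the marrow of femur and tibia. The cells came from 3 *HRP-2* wild type (Hrp2+/+) and 4 *HRP-2* knockout (Hrp2-/-) mice aged 6 to 8 weeks, with no treatment, and the knockout animals carried in every tissue the tm1b allele (line C57BL/6N-Hdgfrp2<tm1b (KOMP)Wtsi>/Tcp). By the study's account knockout pups die more often before that age, so the knockout mice sampled are those that lived. Each library is 1 mouse, and 1 read is counted per captured 3′ end of a transcript, so a level is given as CPM, the reads of a gene relative to all reads on genes in its library, scaled with edgeR's TMM factors. CPM here is not divided by gene length, and levels are therefore compared between mice and not between genes.

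The libraries held between 3525665 and 4490287 reads on genes in wild type and between 4355974 and 5605158 in knockout mice, and 3 reads, taken as the floor, stood for 0.559 to 0.838 CPM. *Hdgfl2*, the symbol under which *HRP-2* is counted, lay between 43.6 and 49.9 CPM in wild type and between 0.497 and 2.52 CPM in knockout mice (log2 fold change −5.09 with a standard error of 0.34, and an adjusted p of 1.38e-07 by the quasi-likelihood test of edgeR). The ribosomal RNA precursor *Rn45s* took from 4.94% to 20.6% of the reads. KO replicate 3 stood apart by sex-linked genes, with *Xist* at 0.559 CPM against at least 228.5 CPM in the other 6 mice and *Ddx3y* at 104.2 CPM, and the labels give no sex. WT replicate 1 was the lowest of the 7 mice for 6 of the 10 genes, and results on the 10 genes that rest on it are given with and without it. The labelled cells were present by their markers: *Mpo* of granulocyte-monocyte progenitors averaged 5824 CPM over the 7 mice and *Adgrg1* of stem and progenitor cells 412 CPM.

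An antigen receptor gene is put together by V(D)J recombination, in which the RAG1 and RAG2 proteins cut the DNA beside V, D and J segments and terminal deoxynucleotidyl transferase (TdT), the product of *Dntt*, adds bases without a template at the joints. The process begins in lymphoid progenitors that carry the interleukin 7 receptor, and it goes on in pro-B cells under the transcription factors EBF1 and PAX5. A pre-B cell then tests its new heavy chain together with the surrogate light chain (VPREB1 and IGLL1), and CD79A and CD79B pass on the signal. *Dntt* comes on early, before a cell is fixed in the B lineage, whereas *Pax5* and the surrogate light chain mark later steps.

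RefSeq start sites were available for 9 of the 10 genes, and 4 promoters are shown because the results turn on these genes. *Dntt* and *Rag1* had the largest log2 fold changes of the 10 genes in the reported fit, though not in every alternative. *Vpreb1* and *Igll1*, neighbours on chromosome 16, varied together between the mice. Each runs 5′ to 3′ from 250 bases before to 50 bases after the RefSeq start, on GRCm38.p6, and capitals mark matches to the motifs listed after the sequences.
Dntt promoter, chr19:41029025-41029324, plus strand: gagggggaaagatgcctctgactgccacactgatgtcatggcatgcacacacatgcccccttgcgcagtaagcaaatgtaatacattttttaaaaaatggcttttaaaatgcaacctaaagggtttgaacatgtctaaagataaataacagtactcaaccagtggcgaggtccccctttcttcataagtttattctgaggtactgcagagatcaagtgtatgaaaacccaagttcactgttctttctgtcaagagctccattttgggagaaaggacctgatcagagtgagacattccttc
Rag1 promoter, chr2:101649483-101649782, minus strand: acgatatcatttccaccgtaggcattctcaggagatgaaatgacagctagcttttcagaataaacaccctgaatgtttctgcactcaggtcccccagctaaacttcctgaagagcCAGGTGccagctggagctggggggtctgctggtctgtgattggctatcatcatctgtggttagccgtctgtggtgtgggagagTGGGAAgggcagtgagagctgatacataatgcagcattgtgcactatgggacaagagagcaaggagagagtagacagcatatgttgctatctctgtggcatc
Vpreb1 promoter, chr16:16869206-16869505, minus strand: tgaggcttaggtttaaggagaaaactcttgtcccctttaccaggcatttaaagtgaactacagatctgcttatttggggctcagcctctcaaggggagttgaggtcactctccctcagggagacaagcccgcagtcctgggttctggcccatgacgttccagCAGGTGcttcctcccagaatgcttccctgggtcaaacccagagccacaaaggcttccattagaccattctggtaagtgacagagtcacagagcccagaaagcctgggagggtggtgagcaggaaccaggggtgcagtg
Igll1 promoter, chr16:16863936-16864235, minus strand: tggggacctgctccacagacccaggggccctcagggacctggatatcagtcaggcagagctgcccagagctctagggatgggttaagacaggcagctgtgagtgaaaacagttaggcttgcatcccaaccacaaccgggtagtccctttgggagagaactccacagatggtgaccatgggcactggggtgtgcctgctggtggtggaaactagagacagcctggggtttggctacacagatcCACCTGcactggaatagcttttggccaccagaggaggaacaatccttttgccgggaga

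The motifs searched on both strands were the palindromic EBF1 motif, CAGGTG for the E box of E proteins, TGGGAA for Ikaros and AGAGGAA for PU.1. The E box motif was found in the promoters of *Rag1*, *Vpreb1*, *Igll1* and *Cd79a*, and 20.2% of the 32851 promoters of this length hold it. TGGGAA, which 25.6% of promoters hold, was in the *Rag1* window and in 1 of the 2 *Ebf1* windows. AGAGGAA, which 10.4% hold, was in the windows of *Rag2* and *Cd79a* and in the same *Ebf1* window. The *Dntt* window held none of the 4 motifs as spelled here, and the EBF1 motif, present in 0.904% of promoters, was in none of the windows of these genes. These are matches of letters and not measured binding. The reads themselves come from the 3′ ends of the transcripts and carry no information on the promoters.

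*Dntt* (chr19:41029275-41059525, GRCm38, plus strand), which encodes TdT, was lower in every knockout mouse than in any wild type mouse. Its level was 174.9, 171.0 and 183.1 CPM in wild type replicates 1 to 3, and 128.3, 86.9, 77.0 and 131.0 CPM in knockout replicates 1 to 4. The wild type mice lay within 1.07 times of each other, and the knockout mice spread 1.70 times. The means were 176.3 ± 6.21 CPM (SD, n = 3) and 105.8 ± 27.9 CPM (SD, n = 4), 40.0% lower, with a log2 fold change of −0.74 (standard error 0.17). In bulk RNA, fewer cells that hold *Dntt* and less *Dntt* RNA in each cell cannot be told apart. With at least 413 reads in each library *Dntt* was well counted. The genotypes also did not overlap without the TMM factors, and the log2 fold change stayed between −0.89 and −0.61 under all 15 alternatives, the omission of each mouse included.

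*Rag1* (chr2:101638282-101649501, minus strand), the cutting subunit of the recombinase, was the member with the largest difference. Its level was 2.41, 17.6 and 18.3 CPM in the wild type mice and 2.91, 2.90, 3.91 and 7.46 CPM in the knockout mice. WT replicate 1 stood at the level of the knockout mice, and the other wild type mice were above all of them. The log2 fold change was −1.57 (standard error 0.56), or −2.07 without WT replicate 1 and −1.21 without WT replicate 3. The reads were few: 11 in WT replicate 1, with an exact Poisson 95% interval of 5.49 to 19.7, and 63 and 69 in the other wild type mice, against 14 to 30 in the knockout mice. These intervals cover counting error only.

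*Rag2* (chr2:101624718-101632529, plus strand), the partner of *Rag1* on the neighbouring stretch of chromosome 2, was near the floor and overlapped between the genotypes. Its reads numbered 12, 2 and 18 in the wild type and 23, 4, 1 and 7 in the knockout mice, that is from 0.186 to 4.77 CPM. WT replicate 2 and KO replicate 3 were under the floor of 3 reads. The log2 fold change was −0.55 with a standard error of 0.81, so that no change in either direction could be seen. The mice of 1 genotype differed by more than counting error, with 23 reads (exact Poisson 95% interval 14.6 to 34.5) in KO replicate 1 and 1 read (0.0253 to 5.57) in KO replicate 3. The log2 fold change was −1.01 without WT replicate 2, 0.13 without WT replicate 3, −0.32 without KO replicate 2 and −0.17 without KO replicate 3. Without KO replicate 1, which had the most reads, the gene did not pass the filter on low counts. Both *Rag* genes lie inside the span of *B230118H07Rik*, which shares 80 exonic bases with *Rag1* on the same strand and 208 with *Rag2* on the other strand, and reads there may be counted for neither or for the wrong gene.

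*Il7r* (chr15:9505788-9530176, minus strand), the receptor chain through which interleukin 7 sustains lymphoid progenitors, was well counted and varied little. Its level was 46.8, 76.8 and 67.1 CPM in wild type and 61.1, 51.2, 49.8 and 63.1 CPM in knockout mice. All 4 knockout mice lay within the range of the wild type mice. The log2 fold change was −0.17 (standard error 0.18), with −0.35 without WT replicate 1, which had the lowest level of all, and −0.014 without WT replicate 2, which had the highest.

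**Figure D1:**
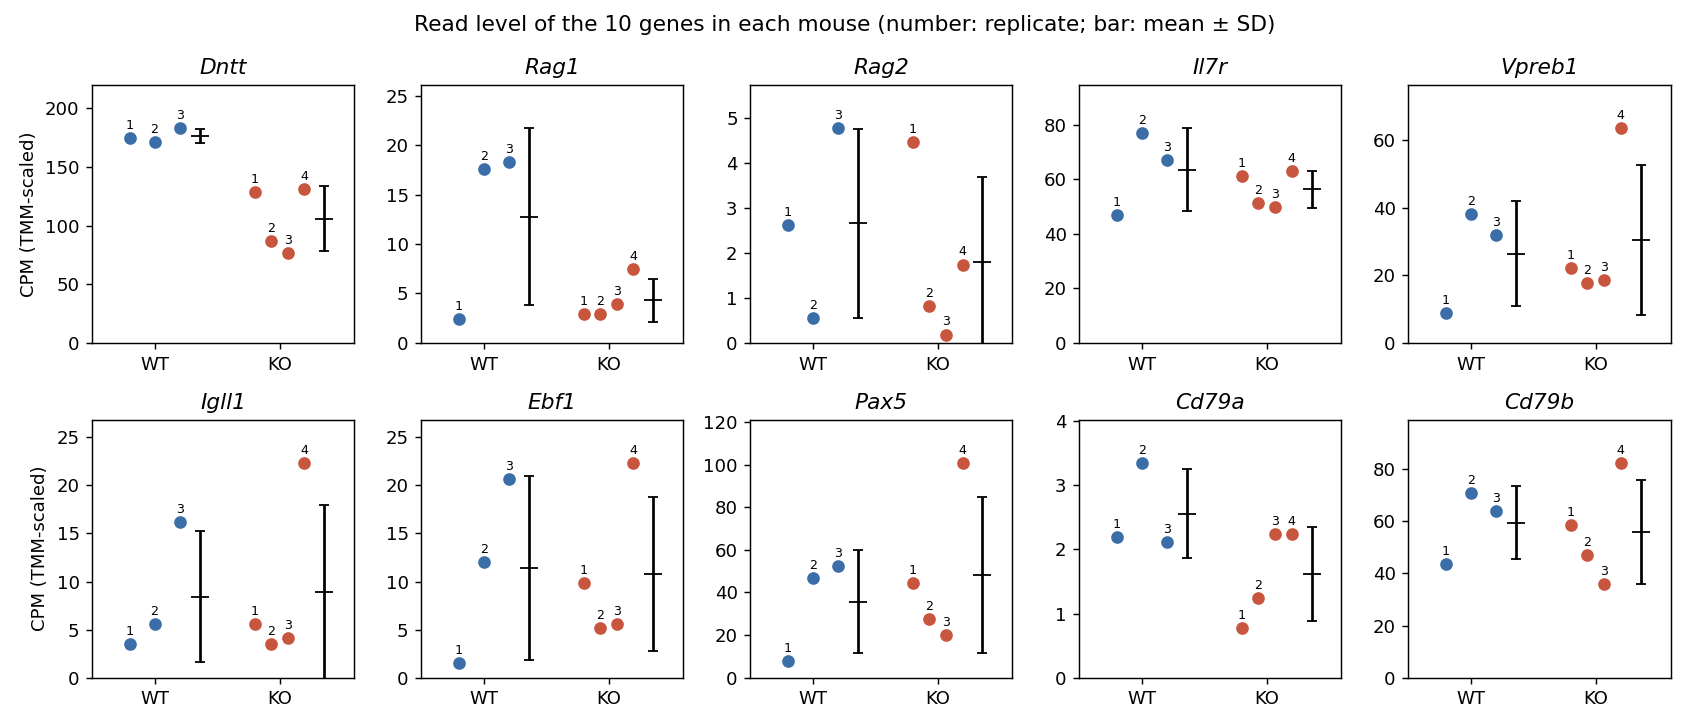
Level of each of the 10 genes (y axis, TMM-scaled CPM, from 0) in 3 wild type (blue) and 4 knockout (red) mice, numbered by replicate, with mean and SD as black bars that end at the axis where they would pass below 0. *Dntt* separates the genotypes, from 171.0 CPM upward in wild type and up to 131.0 CPM in knockout, while the other genes overlap and WT replicate 1 and KO replicate 4 lie at the ends for *Vpreb1*, *Ebf1* and *Pax5*.

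The surrogate light chain genes differed more between mice than between genotypes. *Vpreb1* (chr16:16868403-16870843, minus strand) stood at 8.97, 38.3 and 32.1 CPM in wild type and at 22.3, 17.6, 18.6 and 63.6 CPM in knockout mice. Its lowest mouse was WT replicate 1 and its highest KO replicate 4, a span of 7.09 times. The log2 fold change was 0.21 (standard error 0.69), but −0.21 without WT replicate 1 and −0.42 without KO replicate 4. Without any one of the other 5 mice it was positive, from 0.34 without KO replicate 1 to 0.58 without WT replicate 2. *Igll1* (chr16:16860671-16863985, minus strand) stood at 3.50, 5.59 and 16.2 CPM in wild type and at 5.62, 3.52, 4.10 and 22.4 CPM in knockout mice. It was high in WT replicate 3 and KO replicate 4 and low in the other 5 mice. The log2 fold change of 0.06 (standard error 0.77) became −0.31, −0.15 and 0.96 without WT replicates 1, 2 and 3, and −0.92 without KO replicate 4. *Vpreb1* has a close copy in *Vpreb2*, which was counted at no more than 2.51 CPM, and it shares 108 exonic bases with *Top3b* on the other strand, so its reads may be incomplete.

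Among the genes with more reads than *Rag2*, the transcription factor genes had the widest spread between mice. *Ebf1* (chr11:44617317-45008091, plus strand), which opens the B cell program, stood at 1.53, 12.0 and 20.7 CPM in wild type and at 9.89, 5.18, 5.59 and 22.4 CPM in knockout mice. WT replicate 1, with 7 reads, was 14.6 times below KO replicate 4, and the knockout mice lay within the wild type range except for KO replicate 4. *Pax5* (chr4:44524757-44710487, minus strand), which fixes cells in the B lineage, stood at 7.88, 46.9 and 52.2 CPM in wild type and at 44.6, 27.6, 19.9 and 100.9 CPM in knockout mice. Again WT replicate 1 was the lowest and KO replicate 4 the highest, 12.8 times apart. The log2 fold changes were −0.09 (standard error 0.84) for *Ebf1* and 0.44 (standard error 0.86) for *Pax5*. Without WT replicate 1 they were −0.62 and −0.04, and without KO replicate 4 they were −0.71 and −0.20. Without WT replicate 3 they moved the other way, to 0.69 and 0.83, and *Pax5* was at 0.69 without WT replicate 2. *Ebf1* was also above 0 without KO replicate 2 (0.14), without KO replicate 3 (0.13) and with limma-voom (0.36), and *Pax5* was at 0.63 and 0.70 without these 2 mice. *Pax5* shares 636 exonic bases with *5730488B01Rik* and 125 with *Gm12462*, both on the other strand, so its reads may be incomplete.

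*Cd79a* and *Cd79b* encode the signalling chains of the B cell receptor. *Cd79a* (chr7:24897381-24902197, plus strand) had 10, 12 and 8 reads in wild type and 4, 6, 12 and 9 in knockout mice, or from 0.775 to 3.35 CPM. At so few reads its log2 fold change of −0.65 had a standard error of 0.62. It was −0.41 without WT replicate 2, and without KO replicate 1, 2 or 3 the gene did not pass the filter on low counts. *Cd79b* (chr11:106311341-106314762, minus strand) stood at 43.8, 70.7 and 63.9 CPM in wild type and at 58.7, 47.1, 35.8 and 82.5 CPM in knockout mice. It had the same lowest wild type and highest knockout mouse as *Pax5*, while the lowest of all was KO replicate 3. Its log2 fold change was −0.09 (standard error 0.25), with −0.26 without WT replicate 1, 0.06 without WT replicate 2, 0.08 without KO replicate 3 and −0.33 without KO replicate 4.

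**Figure D2:**
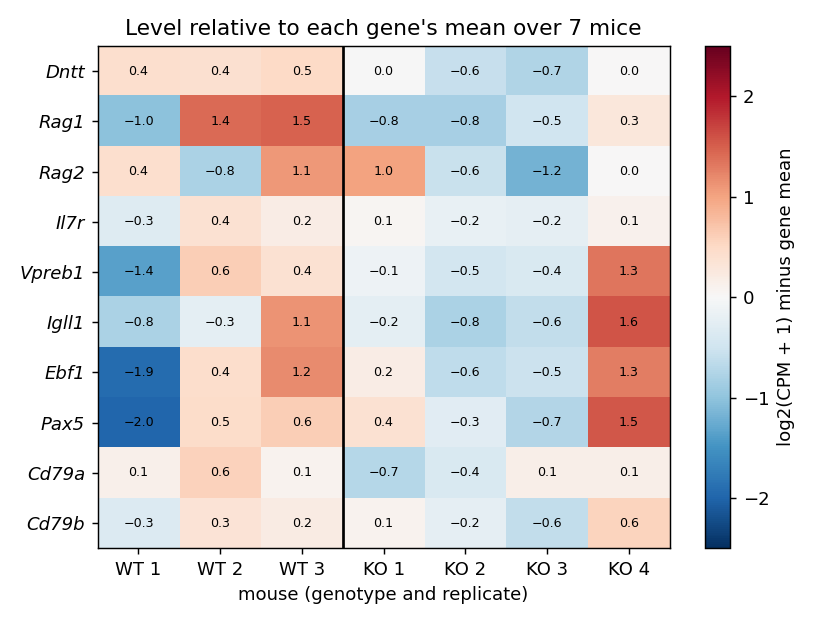
Each cell is log2(CPM + 1) of a gene (row) in a mouse (column) minus the mean of that gene over the 7 mice, with the wild type mice left of the line and the number printed. *Ebf1* and *Pax5* lie furthest below their means in WT replicate 1, and *Vpreb1*, *Igll1*, *Ebf1* and *Pax5* lie high in KO replicate 4, whereas *Dntt* is above its mean in all 3 wild type mice.

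Counted together, 7 of the 10 genes were lower and 3 higher in knockout cells, and 50.2% of all genes tested were lower. *Dntt*, chosen for its lower level, is among the 7, and its part in the counts and the median was fixed by that choice. The median log2 fold change of the 10 genes was −0.13, beside −0.0014 for all genes. The count depended on single mice: all 10 genes were lower without WT replicate 1 (median −0.45) and without KO replicate 4 (median −0.62), whereas 5 of 10 were lower without WT replicate 3, 5 of 8 without KO replicate 1, 5 of 9 without KO replicate 2 and 4 of 9 without KO replicate 3. No gene of the 10 had an adjusted p under 0.25, the threshold of the study, by edgeR's quasi-likelihood test, where 0.0178% of all genes did. An unadjusted p under 0.05 was found for *Dntt* and *Rag1*, 2 of 10, where 3.63% of all genes had one, 2.07% lower in knockout cells. With limma-voom, without WT replicate 2 and without WT replicate 3 only *Dntt* had one. By DESeq2 1 gene, *Dntt*, was under the adjusted threshold, as were 0.186% of all genes, and without the filter on low counts edgeR called *Dntt* and *Rag1*, and 0.25% of all genes (41 of 16378). In TMM-scaled CPM *Dntt* was the only gene of the 10 that did not overlap between the genotypes, lower in knockout, as for 2.80% of all genes, or 5.17% in either direction. Without the TMM factors *Cd79a*, with 4 to 12 reads per library, did not overlap either, making 2 of 10 beside 2.65% of all genes. As the comparison was used to choose *Dntt*, nothing is read from these shares.

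**Figure D3:**
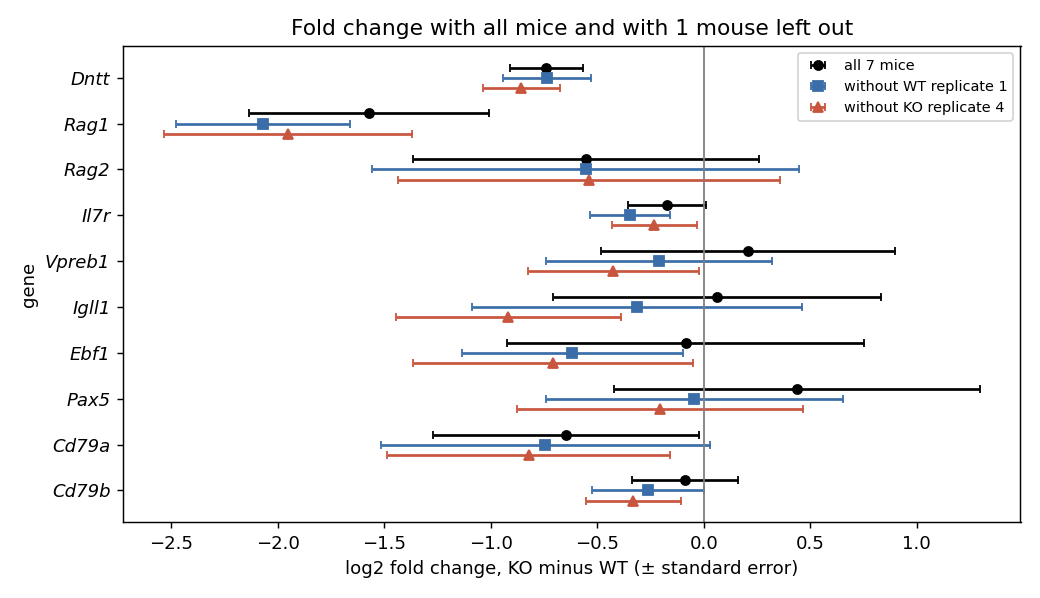
Log2 fold change of knockout against wild type (x axis, with standard error bars) for each gene with all 7 mice (black), without WT replicate 1 (blue) and without KO replicate 4 (red). *Vpreb1*, *Igll1* and *Pax5* change sign between the fits, while the other 7 genes stay below 0 in all 3, *Dntt* from −0.86 to −0.74 and *Rag1* from −2.07 to −1.57. In fits not shown *Rag2* and *Ebf1* were above 0 without WT replicate 3 (0.13 and 0.69), and *Cd79b* without KO replicate 3 (0.08).

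Ratios of reads within a library do not depend on how libraries are scaled, and some ratios with *Rag1* or *Dntt* separated the genotypes. For each *Pax5* read there were 0.306, 0.375 and 0.350 *Rag1* reads in the wild type mice and 0.0652, 0.105, 0.196 and 0.0739 in the knockout mice. Here WT replicate 1, low in both genes, lay with the other wild type mice, and the genotypes did not overlap. Its value rests on 11 *Rag1* reads, and the counting interval of these reads given above is wide enough to reach the knockout range of the ratios to *Pax5* and *Vpreb1*, while its ratio to *Ebf1* has 7 *Ebf1* reads as divisor. The ratio of *Rag1* to *Ebf1* ran from 0.885 to 1.57 in wild type and from 0.294 to 0.700 in knockout mice, and that of *Rag1* to *Vpreb1* from 0.268 to 0.570 and from 0.117 to 0.210. In both the knockout mice lay below the wild type mice. For *Dntt* the ratios to *Il7r* and *Cd79b* did so: there were from 2.23 to 3.73 *Dntt* reads per *Il7r* read in wild type and from 1.55 to 2.10 in knockout mice, and from 2.42 to 4.00 and from 1.59 to 2.18 per *Cd79b* read. Against *Pax5*, by contrast, the *Dntt* ratio overlapped, from 3.51 to 22.2 in wild type and from 1.30 to 3.86 in knockout mice.

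Of the 45 ratios among the 10 genes 5 did not overlap, 3 with *Rag1* and 2 with *Dntt*, and these 5 were picked after all had been seen. The count rested on WT replicate 1. Without it the ratios of *Rag1* to *Il7r*, *Igll1*, *Cd79a* and *Cd79b* were also lower in every knockout mouse, and that of *Dntt* to *Rag1* was higher. For *Rag1* per *Il7r* read, WT replicates 2 and 3 stood at 0.229 and 0.273, and the knockout mice at 0.0476 to 0.118. The shares of all genes that follow are for all 7 mice. Over all genes tested, 0.213% had a ratio to *Pax5* that was lower in every knockout mouse, 0.0355% to *Ebf1*, 0.266% to *Vpreb1*, 0.595% to *Il7r* and 0.346% to *Cd79b*. For the other genes as the divisor these shares were 0.0444% (*Dntt*), 0.00888% (*Rag1* and also *Rag2*), 0.0266% (*Igll1*) and 0.0178% (*Cd79a*). Since the ratios rest on the comparison that chose *Dntt*, they remain a description.

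**Figure D4:**
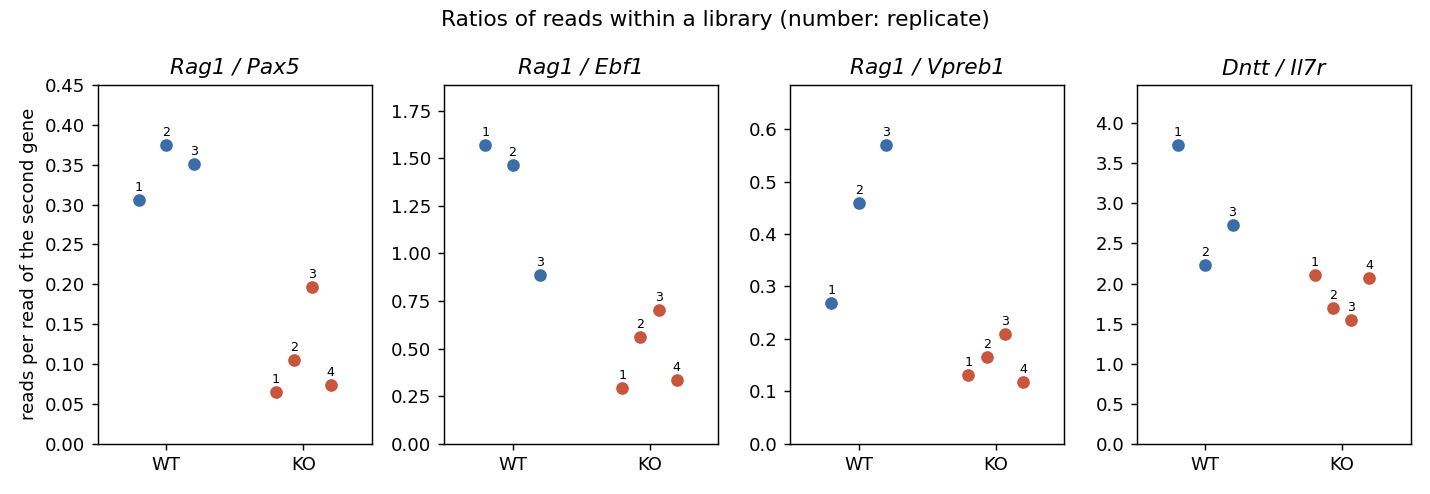
Reads of 1 gene per read of another in the same library (y axis, from 0) in wild type (blue) and knockout (red) mice, numbered by replicate. The 3 *Rag1* ratios and the *Dntt* to *Il7r* ratio are lower in all 4 knockout mice, with 0.0652 to 0.196 *Rag1* reads per *Pax5* read against 0.306 to 0.375 in wild type.

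To see which genes varied together apart from genotype, each value of log2(CPM + 1) was expressed as its deviation from the mean of its genotype, and Pearson's r was taken over the 7 mice, which share their library and depth between genes. *Ebf1*, *Pax5* and *Vpreb1* moved as a group, with r from 0.94 to 0.97, or from 0.87 to 0.94 without WT replicate 1. *Rag1* had an r of 0.93 with *Ebf1* and 0.89 with *Pax5*, or 0.79 and 0.74 without that mouse. *Dntt* had an r between −0.30 and 0.79 with the other genes and none of its pairs was among the 17 of 45 over 0.8, but this rested on WT replicate 1. Without it 4 of the 17 pairs over 0.8 held *Dntt*, which then had an r of 0.89 with *Pax5* and 0.84 with *Ebf1*. *Vpreb3*, a B lineage gene outside the 10, had an r of 0.98 with *Pax5* and of 0.66 with *Dntt*, or 0.96 and 0.95 without WT replicate 1. *Cd79a*, with few reads, had an r of 0.97 with *Rn45s* over the 7 mice, and the part of this in its values was not tested. These values describe 7 or 6 mice and carry no test, and the group and the omission were chosen after seeing the data. The share of all gene pairs with such values of r is not given here, so nothing is read from the counts of pairs.

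The genes most like *Dntt* over the 7 mice were *Aff3*, a nuclear factor gene of the AF4 family known from lymphoid cells, with r = 0.99, and *Camkk1*, *Prg3*, *Akr1e1* and *Gzmb*, with r from 0.96 to 0.98. The means of *Aff3* were 68.6 CPM in wild type and 49.1 CPM in knockout cells. By deviations from the genotype means the 5 closest were *Paqr7*, *Aff3*, *Tysnd1*, *Gm4890* and *1810021B22Rik*, with r from 0.98 to 0.99. *Aff3* was thus the gene on both lists, and neither list is given without WT replicate 1. With 11265 genes and 7 mice, high values of r are found for some genes whatever their relation.

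Other genes of the pathway came from 4 lists that share no gene with the 10, and 84 of their genes could be tested. None had an adjusted p under 0.25 by edgeR's quasi-likelihood test or by DESeq2, and the smallest adjusted p from edgeR was 0.999. An unadjusted p under 0.05 was found for 3 of the 84 by edgeR, against 3.63% of all genes. By DESeq2 it was also found for 3, but the share of all genes is not given for that test, so nothing is read from this count. Of the 84, 43 were lower and 41 higher in knockout cells, with a median log2 fold change of −0.0091.

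Among 19 tested genes of lymphoid priming and interleukin 7 signalling, 12 were lower and 7 higher, with a median of −0.09. *Ly6d*, a marker of B-biased progenitors, averaged 306.5 CPM in the 3 wild type mice (SD 36.6) and 367.0 CPM in the 4 knockout mice (SD 46.5), and *Notch1* and *Cd7* had log2 fold changes of −0.38 and 0.23. None of the 3, those with the smallest p of the list, passed the test. *Flt3*, the receptor of multipotent lymphoid progenitors, lay at −0.21 on the same scale (standard error 0.22). Among 25 lymphoid transcription factors 14 were lower and 11 higher, with a median of −0.02. They included the 3 genes with an unadjusted p under 0.05: *Ikzf2* and *Lmo2* with log2 fold changes of −0.46 and −0.28, and *Id3*, an inhibitor of E proteins, with 0.70. *Ikzf1* and *Tcf3*, which encode Ikaros and the E protein E2A, lay at 0.04 and −0.02.

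Of 17 genes listed for V(D)J joining, which range from cofactors of RAG and TdT to DNA repair proteins, 6 were lower and 11 higher, with a median of 0.15. *Dclre1c*, which encodes the hairpin opening nuclease Artemis, had a log2 fold change of 0.44, with *Xrcc6* at −0.38 and *Trp53bp1* at 0.65 the next by p. Of 23 tested B cell genes 11 were lower and 12 higher, with a median of 0.05, and *Cnr2*, *Btk* and *Cd93* had the smallest p, with log2 fold changes of −0.47, 0.30 and −0.17. *Vpreb3* ran from 6.57 CPM in WT replicate 1 to 60.4 CPM in KO replicate 4. It thus had the lowest and the highest mouse of *Pax5*. Of the list 7 symbols, among them the immunoglobulin heavy and light chain constant genes, were not among the 25033 gene symbols counted.

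**Figure D5:**
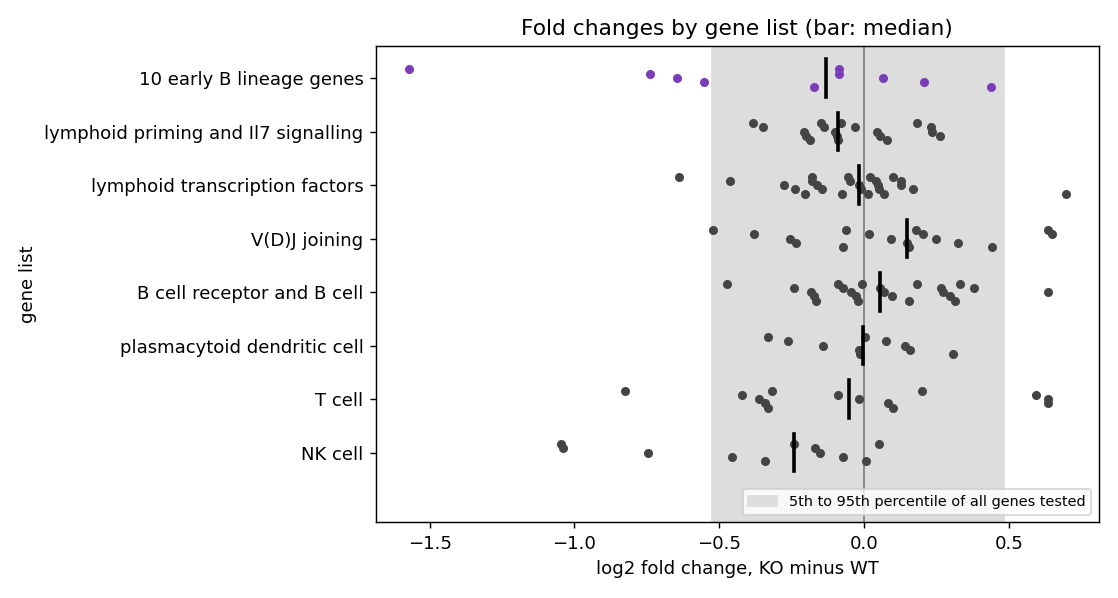
Log2 fold change of knockout against wild type (x axis) of each tested gene (points) by list (rows), with the median as a bar and the 5th to 95th percentile of all genes tested, −0.53 to 0.48, in grey. *Rag1* at −1.57 and *Dntt* at −0.74 lie furthest to the left among the 10 genes (purple), and the medians of the lymphoid lists lie between −0.09 and 0.15.

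Markers of plasmacytoid dendritic cells, another cell type that can hold *Dntt*, *Rag1* or *Il7r* reads, were measured beside them. Markers of T cells, which a lineage depletion should remove, and of natural killer cells, which it may leave, were measured too. The summed level of 10 plasmacytoid dendritic cell markers, led by *Siglech*, ran from 804.5 to 1095 CPM in wild type and from 791.8 to 1059 CPM in knockout mice. The genotypes overlapped, with a median log2 fold change of −0.0049. Of the T cell list 15 genes were counted and summed to 355.7 to 383.6 CPM in wild type and 284.8 to 473.6 CPM in knockout mice. *Lck* led it, and *Ptcra*, the pre-T cell receptor chain, had reads, 4 of them, in KO replicate 1 alone. The 12 natural killer cell genes, led by *Nkg7*, summed to between 781.3 and 849.1 CPM in wild type and between 576.1 and 814.8 CPM in knockout mice, and 9 of the 11 tested were lower. Of these lists 0 genes had an adjusted p under 0.25 by edgeR's quasi-likelihood test, while an unadjusted p under 0.05, which 3.63% of all genes had, was found for 0 plasmacytoid dendritic cell genes. In the T cell list, with 8 genes lower, 6 higher and a median log2 fold change of −0.05, 2 of 14 tested genes had one, *Cd8a* and *Cd8b1*, both higher in knockout cells. In the natural killer cell list 4 of 11 had one, *Klre1*, *Klrk1*, *Gzmb* and *Il2rb*, all lower, and the median log2 fold change of the list was −0.24. Whether natural killer cells had a part in the lower *Dntt* was not tested.

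The other marker lists described the bulk of the sample. Stem and progenitor markers summed to between 1228 and 1725 CPM in wild type and between 1046 and 1468 CPM in knockout mice, granulocyte-monocyte progenitor markers to between 9509 and 11849 CPM and between 8605 and 12187 CPM, and erythroid markers, led by *Tfrc*, to between 362.8 and 648.2 CPM and between 359.4 and 577.6 CPM. All 3 sums overlapped between the genotypes. Of the tested genes 7 of 9 stem and progenitor markers (median log2 fold change −0.21), 4 of 9 granulocyte-monocyte progenitor markers (median 0.03) and 6 of 8 erythroid markers (median −0.24) were lower in knockout cells. None had an adjusted p under 0.25 by edgeR. An unadjusted p under 0.05, which 3.63% of all genes had, was found for 1 of them, the granulocyte-monocyte progenitor marker *Ly6c2*, which was higher. Their part in the lower *Dntt* was not tested. The hemoglobin genes *Hba-a1*, *Hba-a2*, *Hbb-bs* and *Hbb-bt* were listed at 0 in every mouse. The summed erythroid markers were lowest in KO replicate 1 and WT replicate 1 and highest in WT replicate 2 and KO replicate 4, so that WT replicate 1 was low and KO replicate 4 high in these markers as in *Pax5*, and the part of this in the results was not tested.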

How the data were processed

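The data were 7 RNA-seq libraries of lin- bone marrow cells, 3 *HRP-2* wild type and 4 knockout, grouped by the sample titles. The authors made 3′ end libraries (QuantSeq), aligned single reads to GRCm38 with STAR and counted reads per gene. The deposited counts are raw reads on 25033 gene symbols, of which 97.6% are in GENCODE M21 (GRCm38), used here for positions. Tally rows without a gene entered neither library sizes nor tests. Between 27.0% and 31.6% of reads fell on no gene and 1.99% to 2.40% were ambiguous. The strand setting is not given in the sources used here, so antisense overlaps are uncertain.

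Counts were scaled with TMM factors, filtered with filterByExpr and compared with edgeR 4.0.16 (R 4.3.3), a robust quasi-likelihood test with Benjamini-Hochberg adjustment over all genes tested. Standard errors were derived from the fold change and its F statistic. The script was tested on simulated data. DESeq2 1.42.0 and limma 3.58.1 were alternatives, with other scaling, filters, the replicate number as a block, each mouse left out and *Rn45s* left out or as a covariate. Replicate libraries all differed beyond sampling noise.

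The 10 genes and all gene lists were chosen with earlier results of these data known. Named are the 10 genes, *Hdgfl2*, in each lymphoid list the 3 genes with the smallest p, the highest marker of each cell type list with genes at 0 in all mice, and the 5 genes most like *Dntt* by each measure. *Vpreb2*, *Vpreb3*, *Flt3*, *Ikzf1*, *Tcf3*, *Ptcra*, *Cd8a*, *Cd8b1*, *Klre1*, *Klrk1*, *Il2rb*, *Ly6c2*, *Rn45s*, *Xist*, *Ddx3y* and genes overlapping a listed gene were named after their values were seen. Coordinates count from 1.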

Additional observations from a re-analysis of the deposited data

Results flagged for a closer look

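Among the 4 knockout mice a value far from the other 3 was looked for in 22 values, the 10 genes, *Hdgfl2* and the summed level of 11 lists, and 3 were found. Chance flags about 1 in 20 such values, here 1.1. All 3 were in KO replicate 4. *Vpreb1* was at 63.6 CPM, with the other knockout mice between 17.6 and 22.3 CPM. *Igll1* was at 22.4 CPM, against 3.52 to 5.62 CPM. The summed erythroid markers were at 577.6 CPM, against 359.4 to 391.3 CPM. The cause was not tested, and the 3 wild type mice were not searched in this way.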

How the results depend on the processing

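The log2 fold change of *Dntt* kept its direction under all 15 alternatives, from −0.89 to −0.61, that of *Rag1* from −2.07 to −1.12, and that of *Hdgfl2*, under the 14 that test it, from −5.62 to −4.86. The number of genes under an adjusted p of 0.25, reported as 2, was 21 with DESeq2, 41 without a filter on low counts, 1 with at least 10 reads in every mouse, 1 with the replicate block, 8 with the *Rn45s* share in the model, and from 2 to 7 when a mouse was left out, with 7 without WT replicate 1 and 4 without KO replicate 1. Of the 10 genes, 0 were called in the reported fit, 1 with DESeq2, 2 without the filter, and from 0 to 1 when a mouse was left out, the 1 being *Rag1* without WT replicate 1. The number lower in knockout cells, 7 of 10, was 4 of the 7 tested with at least 10 reads in every mouse and from 4 to 10 when a mouse was left out. For each, the cause was not tested, beyond the fewer genes that a stricter filter tests. No other lymphoid gene of the 84 was called under any alternative.

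The replicate number did not pair the mice: the deviations of same-numbered mice correlated at −0.02, −0.21 and −0.16, and 0 of 3 wild type mice were closest to their own number. With the replicate block all 10 genes were lower, and KO replicate 4, alone in its number, then has no part in the comparison. *Rag2* and *Cd79a* had few reads, 1 to 23 and 4 to 12 per library.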
